A study of Mus musculus with 10 samples.

Results

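The prefrontal cortex of CF1 mice, an outbred stock, was compared between young adults whose parents had received a low-protein (LP) or a normal-protein (NP) diet. The 4 prefrontal cortex libraries of the 10 in the series were taken by their labels, as 1 male and 1 female library per diet. All animals were sampled at postnatal day 56. The parents ate the NP diet until 5 days before mating and were then assigned at random to NP or LP, and the dams stayed on that diet through gestation and nursing. Every litter was weaned at postnatal day 21 onto the NP diet and kept on it for 5 weeks, so that the LP mice had eaten the NP diet for those weeks when their tissue was frozen. The series title names impaired social cognition after perinatal protein malnutrition as its subject. The labels name no other treatment. Neither the number of animals behind each library nor their litters are given in the labels, so the p-values below measure only the spread between these libraries, which may be technical.

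The prefrontal cortex integrates sensory and limbic inputs and is needed for planning, working memory and social behaviour. Its neurons respond to firing by switching on immediate early genes, most of them transcription factors such as Fos, Egr and Nr4a proteins, within minutes. These in turn drive effector genes such as Bdnf, Homer1 and Nptx2 that remodel synapses. Protein shortage in early life is known to alter brain growth, myelination and the stress axis, and heat shock and endoplasmic reticulum chaperones are the classical readouts of protein-folding stress.

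Total counts were 10256882 to 13588314 per library, and 22904 to 23944 genes had at least 1 count. A count of 0 allowed up to 0.22 to 0.29 CPM (counts divided by the library total and scaled to a common size), counting error only. Log2 CPM of any pair of these libraries correlated across genes at 0.988 to 0.991, and all 5 sex-linked check genes followed the labelled sexes. The cortical neuron genes Tbr1 (150 to 170 CPM) and Cux2 (178 to 211 CPM) were at similar levels in every library. Of genes listed for neighbouring tissue, the dentate gyrus gene Prox1 was at 8.56 to 13.4 CPM and the striatal receptor gene Drd1 at 12.5 to 15.5 CPM. The tested genes of the lists summed to 207 to 247 CPM (7 hippocampal genes), 435 to 459 CPM (12 striatal) and 76.99 to 91.35 CPM (9 thalamic). How much neighbouring tissue the samples held was not tested.

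Of 15996 genes tested with edgeR's quasi-likelihood test in the 4 libraries (sex and diet as terms, Benjamini-Hochberg adjusted p below 0.05), 781 (4.88%) passed. These were 336 higher with LP (2.1%) and 445 lower (2.78%). That fit has 1 residual degree of freedom and gave no gene a spread of its own, so single noisy genes can pass. A second fit used 9 libraries of 3 brain regions, with a diet term of its own for prefrontal cortex, and passed 81 genes. Hippocampus and hypothalamus shared a diet term in it. Its spread thus holds the difference between the prefrontal cortex pairs and that between the male hippocampus and hypothalamus pairs. A total of 80 genes (0.5% of those tested) passed in both fits, 54 higher (0.338%) and 26 lower (0.163%). Below, "rose" and "fell" are used only for these 80. Unless another fit is named, log2 differences, standard errors (SE) and adjusted p-values are those of edgeR's 9-library fit. All 80 had the same sign in the male and the female pair, which passing both fits favours, and 58.4% of all genes tested did. With DESeq2 37 of the 80 passed, and without a sex term 20. DESeq2 gave some of the 80 no adjusted p, among them Hspa1a, Hspa1b, Nudt13 and Rxfp1, and these count as not passed. When the male NP or the female NP library was left out, 11 of the 80 passed in each case. The size of the difference moved by over 1.5 times for 8 of the 80 without the male NP, 15 without the male LP, 4 without the female NP and 11 without the female LP library, with the direction kept. Libraries of 1 sex and diet from different regions may come from the same animals or litters, which the labels do not say. The 9-library fit treats them as independent, and what shared animals would do to its p-values was not tested. The same holds for an 8-library fit that is named for some genes below. It took the spread from prefrontal cortex and hippocampus and tested 10973 genes.

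**Figure D1:**
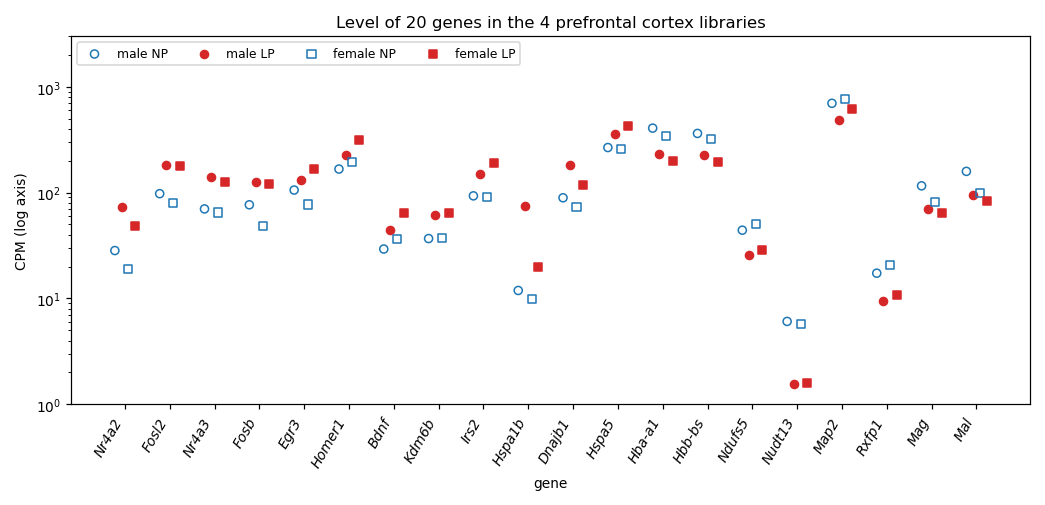
CPM (log axis) of 20 genes in the 4 prefrontal cortex libraries; open blue symbols are NP, filled red symbols LP, circles male and squares female. For Nr4a2 both LP libraries (72.5 and 48.03 CPM) lie above both NP libraries (28.3 and 19.02 CPM), and for Hba-a1 both lie below.

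The clearest group that rose was the immediate early transcription factors. Of 24 listed and tested, 7 rose, none fell, and a further 12 were higher in the 4-library test only. The AP-1 subunit gene Fosl2 was at 97.7 CPM in the male NP and 79.7 CPM in the female NP library, and at 184 and 178 CPM in the male and female LP libraries. Both LP libraries were above both NP libraries, as for 19.8% of all genes tested. Fosl2 rose by 1.03 ± 0.08 (log2 difference ± SE, adjusted p = 3.0e-05). The orphan nuclear receptor gene Nr4a2, which is induced by firing and also specifies dopamine neurons, went from 28.3 to 72.5 CPM in males and from 19.02 to 48.03 CPM in females. Its difference of 1.35 ± 0.10 (adjusted p = 3.0e-05) was of almost the same size in both sexes. Its relative Nr4a3 went from 70.0 to 141 CPM in males and from 64.8 to 126 CPM in females (0.98 ± 0.14, adjusted p = 0.0077). The third receptor of this family, Nr4a1, stood at 413 and 434 CPM in the male NP and LP libraries and at 189 and 324 CPM in the female ones. Its libraries overlapped, since the male NP library lay above the female LP library, and it did not pass the 9-library test (adjusted p = 0.23).

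Fosb, whose stable products accumulate with repeated activity, was at 76.7 and 127 CPM (male NP, LP) and at 48.6 and 120 CPM (female NP, LP), a rise of 0.99 ± 0.15 (adjusted p = 0.0085). Egr3 was at 106 and 132 CPM in males and at 77.2 and 168 CPM in females (0.71 ± 0.13, adjusted p = 0.028), and Egr4 at 84.7 and 111 CPM in males and 54.5 and 103 CPM in females (0.63 ± 0.12, adjusted p = 0.035). Both zinc finger genes had the larger difference in the female pair. The growth response gene Ier5 also rose (0.41 ± 0.08, adjusted p = 0.032).

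The genes most often used as activity markers did not all rise. Fos was at 201 and 259 CPM in the male NP and LP libraries but at 71.4 and 139 CPM in the female ones. The female LP library thus lay below the male NP library, and Fos missed the 9-library threshold (0.63 ± 0.15, adjusted p = 0.089). Egr1 (899 and 1035 CPM in males, 672 and 1065 CPM in females) had both LP libraries above both NP libraries, as 19.8% of all genes tested did. Its difference was 0.43 ± 0.12, with an adjusted p of 0.14. In the 8-library fit Fos and Egr1 passed (adjusted p = 0.0057 and 0.010), among 24 of 34 immediate early and activity-induced genes that it tested. Npas4, a neuron-restricted factor that responds to calcium, stood at 166 and 171 CPM in males and at 42.6 and 110 CPM in females. Ier2 and Btg2 were lower with LP in the male pair (-0.38 and -0.49) and higher in the female pair (0.81 and 0.93). The same was true of the phosphatase gene Dusp1, at -0.30 in males and 0.91 in females.

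Over the 24 factors the median log2 ratio was 0.34 in the male and 0.86 in the female pair, beside 0.00 for all genes in each pair, and 21 were positive in both. Their summed level was 3008 CPM in the male NP, 3648 in the male LP, 1910 in the female NP and 3215 in the female LP library. The female NP library was therefore the one that stood apart. Without it 3 of 43 immediate early and activity-induced genes were called, against 34 with all 4 libraries and 13 in the 9-library fit. The estimates for Fos (-0.0060), Junb (-0.10) and Nr4a1 (-0.12) then turned slightly negative. A fit of 3 libraries has no sex term. Without the male NP library 13 of the 43 were called. How each animal was handled before sampling is not given in the labels, and its part in these levels was not tested.

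**Figure D2:**
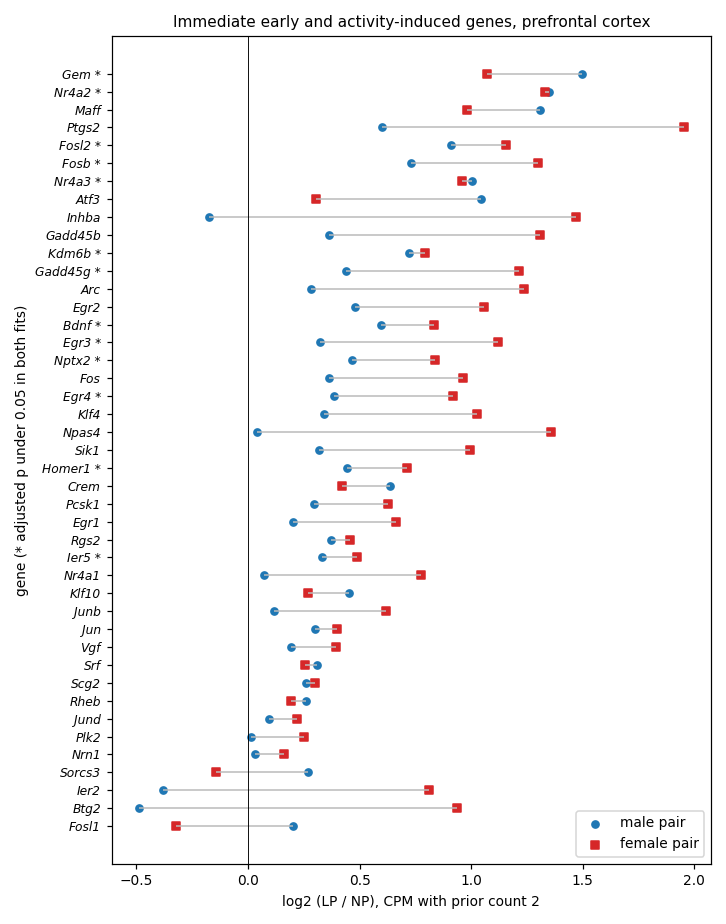
Log2 ratio of LP over NP for the 43 tested immediate early and activity-induced genes, in the male pair (blue circles) and the female pair (red squares); stars mark genes with adjusted p below 0.05 in both fits. Nearly all points lie above 0, and for Arc, Npas4 and Ptgs2 the female ratio is far larger than the male one.

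The activity-induced effectors showed the same direction: 6 of 19 tested rose, none fell, and 9 more were higher in the 4-library test only. The neurotrophin gene Bdnf, which supports synapses and dendrites, was at 29.3 and 44.3 CPM in the male NP and LP libraries and at 36.1 and 64.5 CPM in the female ones (0.72 ± 0.11, adjusted p = 0.0097). Its receptor gene Ntrk2 did not pass either test (668 to 750 CPM, 0.09 ± 0.06). Homer1, which encodes a postsynaptic scaffold and its activity-induced short form, went from 167 to 227 CPM in males and from 194 to 317 CPM in females (0.58 ± 0.07, adjusted p = 0.0032). Nptx2, a secreted pentraxin that clusters AMPA receptors on interneurons, went from 92.1 to 127 CPM and from 108 to 194 CPM (0.65 ± 0.09, adjusted p = 0.0044). For these 3 genes both LP libraries were above both NP libraries, as for 19.8% of all genes tested.

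Kdm6b, a histone H3 lysine demethylase gene, rose from 36.8 to 60.8 CPM in males and from 37.3 to 64.8 CPM in females (0.76 ± 0.09, adjusted p = 0.0016). Its male ratio of 0.72 and female ratio of 0.79 were close. The small GTPase gene Gem was low, at 6.06 and 3.49 CPM in the NP and 17.4 and 7.53 CPM in the LP libraries of males and females (1.38 ± 0.20, adjusted p = 0.0080). Gadd45g, linked to DNA repair and demethylation, rose by 0.75 ± 0.15 (adjusted p = 0.038). Arc, whose protein drives AMPA receptor endocytosis, was at 1069 and 1301 CPM in males and 444 and 1045 CPM in females. Its female LP library lay below the male NP library, and its adjusted p was 0.083 (0.011 in the 8-library fit). Ptgs2, the inducible cyclooxygenase gene, went from 10.5 to 15.9 CPM and from 6.52 to 25.7 CPM, with an adjusted p of 0.054. Feedback inhibitors of the MAP kinase cascade, which carries the activity signal to the nucleus, were also examined. Of 11 Dusp, Spry and Spred genes, Dusp14 (0.53 ± 0.08) and Dusp4 (0.75 ± 0.15) rose, and Spry2, Spry4 and Spred2 were higher in the 4-library test only. The Dusp4 log2 ratio was 0.43 in the male and 1.00 in the female pair, and its estimate was 0.21 without the female LP and 1.22 without the male LP library.

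The promoters of these groups were searched for the cAMP response element (TGACGTCA) and the CArG box bound by serum response factor, on both strands of the 250 bases before each RefSeq start (GRCm38.p6). Promoters were found for 18 of the 24 factors and 12 of the 20 listed effectors. The response element stood in 2 of 24 promoters of the factors and 3 of 19 of the effectors, beside 1.55% of 32851 promoters of all genes. The CArG box stood in 5 of 24 promoters of the factors (4 of them of Egr2), beside 1.47% of all promoters. Both shares describe these windows only, since several promoters of a gene overlap. Among the 40 genes that rose and had a promoter, the response element was in none and the CArG box in 1.

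Of the promoters that held a motif, 3 are shown, shortened to the bases before the first GENCODE exon of the gene and with the motif in capitals. Srf (chr17:46556176-46556412, minus strand) encodes serum response factor itself and holds 2 CArG boxes. Pcsk1 (chr13:75089607-75089825, plus strand), which encodes a prohormone convertase, and Btg2 (chr1:134079156-134079405, minus strand), an antiproliferative gene, each hold 1 cAMP response element. No promoter shown holds both motifs.
Srf: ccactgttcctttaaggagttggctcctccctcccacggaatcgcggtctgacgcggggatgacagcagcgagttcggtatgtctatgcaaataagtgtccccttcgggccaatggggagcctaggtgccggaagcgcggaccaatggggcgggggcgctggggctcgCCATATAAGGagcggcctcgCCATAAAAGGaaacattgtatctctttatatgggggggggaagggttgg
Pcsk1: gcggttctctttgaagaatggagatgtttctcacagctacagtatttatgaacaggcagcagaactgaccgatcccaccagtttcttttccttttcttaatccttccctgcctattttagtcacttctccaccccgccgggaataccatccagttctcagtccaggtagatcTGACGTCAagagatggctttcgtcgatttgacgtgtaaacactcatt
Btg2: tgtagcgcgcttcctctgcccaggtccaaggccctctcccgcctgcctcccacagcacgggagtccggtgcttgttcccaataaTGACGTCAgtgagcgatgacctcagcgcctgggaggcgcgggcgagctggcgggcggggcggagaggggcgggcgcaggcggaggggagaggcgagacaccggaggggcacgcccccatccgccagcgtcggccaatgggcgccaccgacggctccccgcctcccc
The 3 genes differed in their values. Srf was at 82.6 and 102 CPM in males and at 84.8 and 101 CPM in females (0.28 ± 0.08), and Pcsk1 at 23.1 and 28.3 CPM in males and 26.6 and 41.1 CPM in females (0.47 ± 0.11). Both were higher in the 4-library test only. Btg2 stood at 114 and 81.3 CPM in males and at 18.8 and 36.1 CPM in females, so that its pairs went opposite ways.

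Chaperones of the cytosol formed the second group that rose. Of 26 cytosolic heat shock genes tested, 4 rose, none fell, and Hspb1, Hspa8, Hsph1 and Stip1 were higher in the 4-library test only. The inducible Hsp70 gene Hspa1b was at 11.9 CPM in the male NP and 74.9 CPM in the male LP library, and at 9.83 and 20.005 CPM in the female ones. The male ratio of 2.64 (95% Poisson interval 2.41 to 2.91, counting error only) was above the female ratio of 1.01 (0.68 to 1.38), with 1 library behind each value. Its near-identical neighbour Hspa1a went from 8.86 to 47.7 CPM and from 9.10 to 15.4 CPM, and how reads shared by the 2 copies were assigned is not known here. Hspa1b rose by 2.05 ± 0.33 (adjusted p = 0.012) and Hspa1a by 1.78 ± 0.31 (adjusted p = 0.021).

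The Hsp40 co-chaperone gene Dnajb1 went from 89.3 to 183 CPM in males and from 72.9 to 118 CPM in females (0.88 ± 0.09, adjusted p = 2.1e-04), and Dnajb5 from 258 to 337 CPM and from 254 to 346 CPM (0.42 ± 0.07, adjusted p = 0.012). The abundant constitutive chaperones differed less: Hspa8 was at 1259 and 1547 CPM in males and 1270 and 1466 CPM in females, and Hsp90aa1 was lower with LP in both pairs (-0.15 and -0.20) without passing. The list's median ratio was 0.14 in each pair. The heat shock element (3 inverted units, both strands) was found in 2 of 29 promoters of 21 listed genes, beside 0.466% of all promoters. These belong to the neighbours Hspd1 and Hspe1 on opposite strands, whose windows overlap and share the site, so it is counted for each. Both genes encode chaperonins of the mitochondrion, although the list is one of the cytosol, and neither passed a test. Without the male NP or the female NP library no heat shock gene of the 26 was called.

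Of 19 genes of the endoplasmic reticulum stress response, 2 rose and 9 more were higher in the 4-library test only, with none lower. Hspa5, which encodes the master chaperone BiP, was at 266 and 354 CPM in males and 258 and 425 CPM in females (0.56 ± 0.07, adjusted p = 0.0036). Creld2 went from 13.7 to 19.8 CPM and from 14.98 to 26.5 CPM (0.67 ± 0.13, adjusted p = 0.033). Xbp1 (0.25 ± 0.08), Calr (0.23 ± 0.06) and Ddit3 (0.38 ± 0.11) passed the 4-library test only, whereas Hsp90b1, Canx and Atf6 passed neither. In the ATF4 response, which cells use when amino acids are short, Atf4 itself (0.28 ± 0.08), Ddit3 and Slc7a1 passed the 4-library test only, and the asparagine synthetase gene Asns was at 91.2 to 98.5 CPM in every library. The ATF4 list's median was 0.05 in each pair.

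Several single regulators rose with the activity genes. Irs2, an adaptor of the insulin and IGF-1 receptors, was at 93.1 and 150 CPM in males and 91.0 and 190 CPM in females (0.87 ± 0.09, adjusted p = 2.3e-04). It was the only one of 21 insulin, IGF and leptin genes to rise, and the receptor genes Insr and Igf1r passed neither test. The clock genes Per2 (50.9 to 75.1 CPM in males, 75.8 to 108 CPM in females; 0.54 ± 0.08) and Per1 (0.36 ± 0.07) rose. Of the other clock genes of the 20 tested, Nfil3 (0.48 ± 0.13) and Bhlhe40 (0.28 ± 0.08) were higher and Clock, Nr1d2, Hlf and Rora lower in the 4-library test only. The time of day of sampling is not given in the labels, and its part was not tested. Of 13 DNA methylation genes the dioxygenase gene Tet3 rose (0.48 ± 0.08, adjusted p = 0.016), and Dnmt1 and Dnmt3a passed neither test.

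Among 15 glucocorticoid receptor and target genes Cdkn1a, the cell cycle inhibitor p21, rose (43.5 to 55.9 CPM in males and 43.3 to 81.4 CPM in females; 0.63 ± 0.12). The receptor gene Nr3c1 and its feedback target Fkbp5 passed neither test. Outside the lists, the postsynaptic genes Synpo (0.38 ± 0.06) and Baiap2 (0.32 ± 0.06), the cyclin gene Ccnd2 (0.54 ± 0.08), the glycogen-targeting subunit gene Ppp1r3c (0.60 ± 0.09) and the ubiquitin-linked gene Midn (0.50 ± 0.08) rose. Cyp11a1, the enzyme gene that starts steroid synthesis, had only 7 and 2 counts in the male and female NP libraries and 33 and 21 in the LP libraries, and its estimate of 2.53 ± 0.48 rests on these.

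Of 24 cholesterol synthesis genes, 3 were higher, among them Mvd (0.41 ± 0.12) and Cyp51 (0.24 ± 0.08), and Stard4 was lower, in the 4-library test only. Of 23 interferon and antigen presentation genes, H2-D1 was higher (17.9 to 35.1 CPM in males, 23.98 to 35.4 CPM in females) and Ifit3 lower in that test only, the latter with at most 2.02 CPM. Over all genes tested, 2.1% were higher and 2.78% lower in the 4-library test. The glucose transporter gene Slc2a1 of the endothelial list was at 137 and 166 CPM in males and 153 and 211 CPM in females (0.37 ± 0.08, adjusted p = 0.057). The cold-inducible genes Cirbp and Rbm3 were lower with LP in both pairs and passed neither test.

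**Figure D3:**
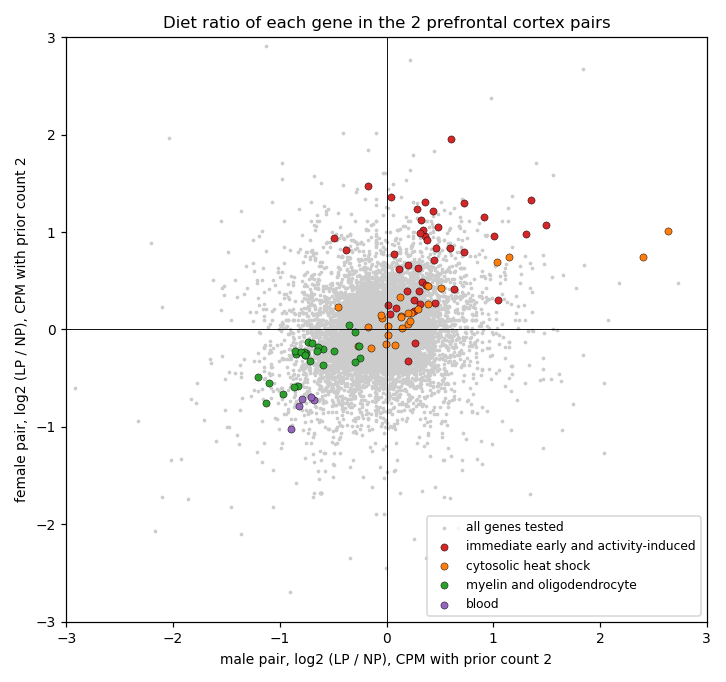
Log2 ratio of LP over NP of each tested gene in the male pair (x) and the female pair (y), both from CPM with a prior count of 2; grey points are all genes and 3 of them lie outside the axes. Activity-induced genes lie mostly in the upper right, blood genes in the lower left, and myelin genes lower in the male than in the female pair.

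The globin genes were the clearest group that fell. Hba-a1 was at 406 and 341 CPM in the male and female NP libraries and at 231 and 198 CPM in the LP libraries (-0.80 ± 0.07, adjusted p = 7.0e-05). Hba-a2, Hbb-bs and Hbb-bt fell by 0.76, 0.71 and 0.70 on the log2 scale. For each globin gene both LP libraries were below both NP libraries, as for 21% of all genes tested, and the male and female ratios differed by less than 0.1. Alas2, the heme enzyme gene of red cell precursors, was at 3.27 to 3.91 CPM with LP and 6.80 to 7.42 CPM with NP and passed the 4-library test only (adjusted p = 0.056). The other 4 of the 9 listed blood genes were too low to test. In bulk tissue fewer cells of a type, such as red cells left in vessels, and less RNA per cell cannot be told apart. The summed level of the 16 endothelial genes did not follow the diets, at 700 and 690 CPM in males and 647 and 745 CPM in females.

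The myelin and oligodendrocyte genes were lower with LP in both pairs for 25 of 26 tested, yet none passed both fits. A total of 20 passed the 4-library test, all lower. In the 8-library fit 10 of 17 tested passed, all lower, with Mal at an adjusted p of 0.010. Mal, a myelin raft protein gene, was at 159 CPM in the male NP library and at 93.9, 99.3 and 83.8 CPM in the male LP, female NP and female LP libraries (-0.52 ± 0.11, adjusted p = 0.058). Mag, which encodes an adhesion protein between axon and myelin, was also highest there, with 116, 70.3, 81.1 and 64.6 CPM (-0.54 ± 0.13, adjusted p = 0.098), as was Mbp with 1202, 856, 884 and 756 CPM. In each of the 3 the male NP library was the high one. The list summed to 3339 CPM there and to 2198, 2382 and 2032 CPM in the other libraries.

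The median ratio of the 26 myelin genes was -0.74 in males and -0.25 in females, beside 0.00 for all genes. Without the male NP library none of the 26 was called, and without the male LP library none either. Without the female NP library 7 were called, and without the female LP library 5, all lower. Of 8 oligodendrocyte precursor genes, Bcas1 (-0.32 ± 0.11) and Enpp6 (-1.24 ± 0.38, at most 2.76 CPM) were lower in the 4-library test only, and Pdgfra, Cspg4 and Gpr17 were among the 6 that passed neither. The transcription factor genes Olig1 (-0.27 ± 0.08, 4-library test only), Olig2 and Sox10 had smaller differences than Mal, Mag and Mbp. Of genes named outside this list, Tmem88b (47.6 and 24.1 CPM in males, 29.8 and 19.5 CPM in females; -0.83 ± 0.13, adjusted p = 0.0097) and Ttyh2 (-0.68 ± 0.12) fell.

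**Figure D4:**
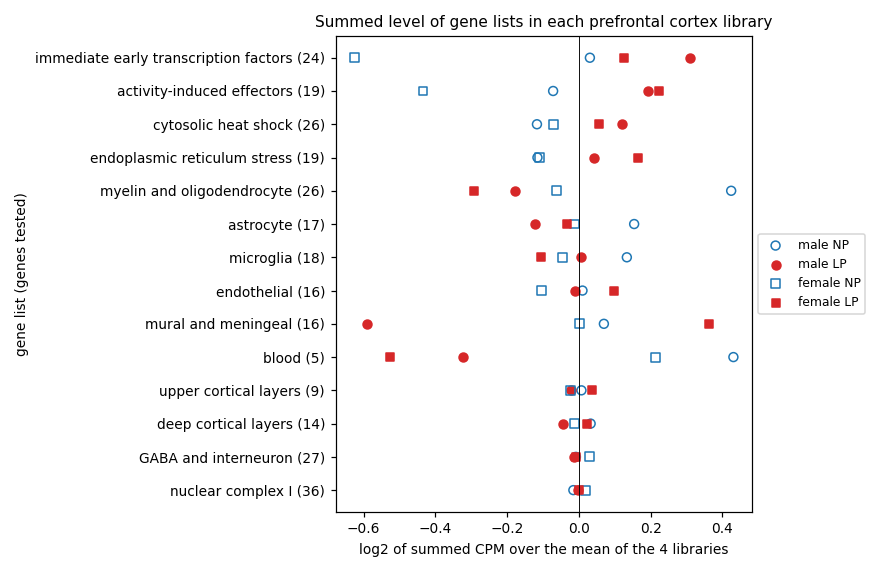
Summed CPM of 14 gene lists in each prefrontal cortex library, as log2 over the mean of the 4 libraries; open blue symbols are NP and filled red symbols LP, circles male and squares female. The female NP library is lowest for the activity genes and the male NP library highest for the myelin genes, while for blood genes the diets separate.

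Markers of other non-neuronal cells were examined next. Gfap, the astrocyte filament gene, was at 178 and 104 CPM in males and at 117 and 131 CPM in females. Of 17 astrocyte genes 5 were lower in the 4-library test only and none in both fits. Ptgds, which is abundant in meninges, went from 657 to 357 CPM in males and from 654 to 895 CPM in females, so that its direction depends on the pair. The 16 mural and meningeal genes summed to 1038, 656, 990 and 1271 CPM in the male NP, male LP, female NP and female LP libraries. Of 18 microglial genes P2ry12 and Laptm5 were lower in the 4-library test only. That test called 2.78% of all genes tested lower. The choroid plexus list had 2 tested genes, neither past a threshold. The part of tissue composition in the differences above was not tested.

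Genes of cortical neuron classes and of transmitter receptors did not pass both fits. Of 9 upper-layer and 14 deep-layer genes none passed both fits, and 1 of each list was higher in the 4-library test only. In that test 2.1% of all genes tested were higher and 2.78% lower. Of 34 glutamate receptor and scaffold genes 1 was higher (Shank2) and 4 lower (Gria2, Gria4, Grin2a and Grin2b) in the 4-library test only. Of 27 GABA and interneuron genes 4 were lower in that test only, among them the receptor subunit genes Gabrb1 and Gabrb2, with Gabrb1 nearest to passing both (72.9 and 49.8 CPM in males, 78.6 and 64.4 CPM in females; -0.42 ± 0.09, adjusted p = 0.056). The interneuron genes Pvalb, Sst and Gad1 passed neither test. Of 24 monoamine, oxytocin and vasopressin receptor genes 2 were higher in the 4-library test only. The oxytocin receptor gene Oxtr was at 4.95 and 14.03 CPM in males and at 6.61 and 6.44 CPM in females. Its male ratio was 1.47 (1.08 to 1.94) and its female ratio -0.04 (-0.55 to 0.46), and the serotonin receptor gene Htr2c was at 13.7 and 26.9 CPM in males and 20.2 and 20.5 CPM in females.

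Of the other genes that fell, Kif5b, Kcnh7, Ano3 and Matr3 were named after their values were seen. Map2, the dendritic microtubule protein gene, was at 697 and 484 CPM in males and 762 and 616 CPM in females (-0.42 ± 0.06, adjusted p = 0.0085). Kif5b, a kinesin motor gene, went from 75.1 to 56.8 CPM and from 75.8 to 59.1 CPM (-0.38 ± 0.08), and Apc, which binds microtubule ends and beta-catenin, from 202 to 155 CPM and from 227 to 180 CPM (-0.36 ± 0.07). The sodium, calcium and potassium exchanger gene Slc24a2 (-0.46 ± 0.08), the potassium channel gene Kcnh7 (-0.57 ± 0.10), the calcium-activated channel family gene Ano3 (-0.50 ± 0.09) and the nuclear matrix gene Matr3 (-0.35 ± 0.07) fell as well. Of 18 neuronal cytoskeleton genes Map2 was the only one to pass both fits, and Mapt, Nefl and Ank3 passed neither. The median ratio of that list was 0.03 in each pair.

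The exons of the genes that fell were long, with a median summed length of 7578.5 bases for the 26 genes that fell, 4282 for the 54 that rose and 4161 for all genes tested. With the genes in 5 equal bins of exon length, 7.24% of the bin of longest genes were lower in the 4-library test, against 1.44% of the bin of shortest genes. Higher calls were also more frequent in the bin of longest genes, at 2.63% against 1.41%. The bin of longest genes had a median log2 ratio of -0.06 in the male and -0.00057 in the female pair. In prefrontal cortex the shift of the longest genes was larger in the male pair, and its part in the lower calls was not tested. The median of that bin was -0.02 in male hippocampus, 0.03 in female hippocampus and 0.06 in hypothalamus.

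A few genes changed by large factors at low or moderate levels. Nudt13, a mitochondrial nudix hydrolase gene, was at 6.06 and 5.70 CPM in the male and female NP libraries and at 1.55 and 1.58 CPM in the LP libraries (-1.91 ± 0.26, adjusted p = 0.0044). Ndufs5, a complex I subunit gene, was at 44.1 and 50.5 CPM with NP and at 25.5 and 28.4 CPM with LP (-0.81 ± 0.10, adjusted p = 0.0013). It was the only one of 36 nuclear complex I genes to pass either fit. The predicted gene Gm10704 had 54 and 35 counts with NP and 8 and 1 with LP, and Gm11892 had 2 and 0 counts with NP and 30 and 17 with LP. The noncoding gene 1500004A13Rik rose (25.7 to 61.3 CPM in males, 33.8 to 53.1 CPM in females), as did the pseudogene Glns-ps1 (24.97 to 47.9 and 27.01 to 52.6 CPM), which derives from the glutamine synthetase gene and may share its reads. Rps3a1, a ribosomal protein gene with many processed copies, was lower mainly in males (206 and 116 CPM, against 174 and 165 CPM in females) and passed the 4-library test only.

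The relaxin receptor gene Rxfp1 fell from 17.3 to 9.45 CPM in males and from 20.5 to 10.8 CPM in females (-0.90 ± 0.14, adjusted p = 0.0085). In hippocampus its ratio was 0.13 in the male and 0.39 in the female pair. The difference between the regions was -1.14 ± 0.22 with an unadjusted p of 1.2e-04 and an adjusted p of 0.33 (edgeR), and so did not pass over all genes. No gene of 10973 passed the test of the difference between prefrontal cortex and hippocampus (0%), by edgeR or by DESeq2, and 587 and 49 had an unadjusted p below 0.05. With no difference in any gene, a share of about 0.05 of the genes would fall below that value. The smallest p was that of Nr4a3 (0.55 ± 0.08 larger in prefrontal cortex, adjusted p = 0.14), followed by Nr4a2 (0.63 ± 0.11, adjusted p = 0.25). Bdnf (0.56 ± 0.12) and Doc2b (0.72 ± 0.17), a calcium sensor gene of vesicle release, were also more positive in prefrontal cortex, and Map2 (-0.36 ± 0.08), Apc (-0.39 ± 0.08), Ermn (-0.92 ± 0.20) and Hba-a1 (-0.37 ± 0.08) more negative, each with an adjusted p of 0.33 or 0.46.

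Of the 54 genes that rose in prefrontal cortex, 51 had a positive ratio in the male hippocampus pair, 37 of 38 measured in the female hippocampus pair and 52 in the hypothalamus pair. Their median pair ratio there was 0.36, 0.37 and 0.32, beside -0.00014, 0.0031 and -0.0032 for all genes tested. In prefrontal cortex the median of their 4-library estimates was 0.63. The genes were chosen by those same libraries, which favours large values there, so the sizes cannot be compared between regions. Of the 26 that fell, 24 were negative in the male hippocampus and 24 in the hypothalamus, but 11 of 21 in the female hippocampus, where their median was -0.0036. The 9-library fit takes part of its spread from the male hippocampus and hypothalamus pairs, which favours genes on which these agree. Its only female hippocampus library had no partner in that fit and added no spread. All these counts are a description. The globins were lower with LP in every pair in which they were measured (the beta globins were not counted in the female hippocampus pair). In all 5 pairs this was also true of Nudt13 (-1.71, -1.85 and -2.005 in male hippocampus, female hippocampus and hypothalamus), Ndufs5 and Gm10704.

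**Figure D5:**
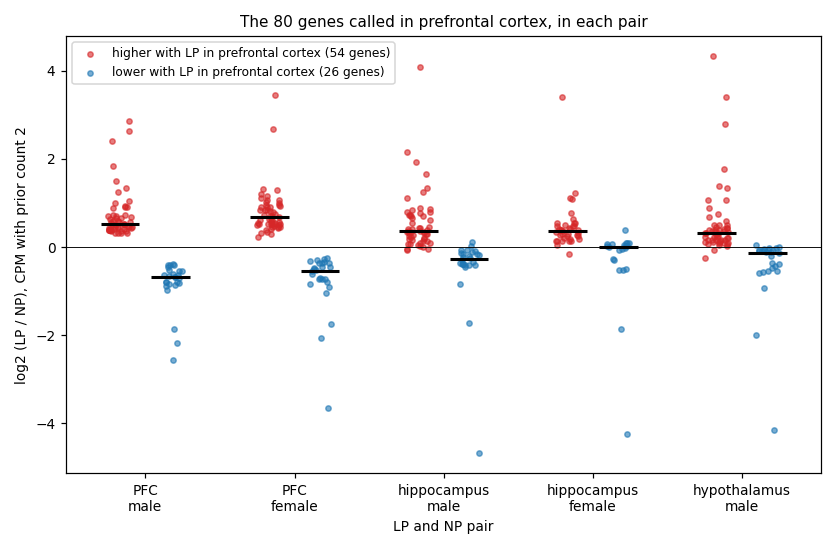
Log2 ratio of LP over NP in each of the 5 pairs for the 54 genes that rose (red) and the 26 that fell (blue) in prefrontal cortex (PFC); black bars are medians, and the first 2 pairs are those that chose the genes. Genes that rose stay mostly above 0 in the other pairs, while those that fell centre on 0 in the female hippocampus.

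Because the 4 prefrontal cortex libraries are complete, genes could be tested that were not counted in 1 hippocampal library. Of the 15996 genes tested, 5547 were of this kind. Of the 80 genes, 21 are among them (16 higher and 5 lower), in chromosomes 5 to 9 and the end of chromosome 4. They include Fosl2 on chromosome 5, Egr4, Ccnd2 and Tet3 on chromosome 6, Fosb and the beta globins on chromosome 7, and Dnajb1 and Irs2 on chromosome 8. Of these genes Tmem106b, a lysosomal membrane protein gene that is a risk gene for frontotemporal dementia, fell from 86.5 to 54.5 CPM in males and from 88.2 to 68.8 CPM in females (-0.52 ± 0.10, adjusted p = 0.035). Sik2, a kinase gene of the CREB coactivator pathway, rose from 14.8 to 20.8 CPM and from 18.7 to 35.1 CPM (0.71 ± 0.13, adjusted p = 0.023). Of 578 X-linked genes tested, 9 were higher and 18 lower in the 4-library test, and none passed both. These calls were 4.67% of the X-linked genes, near the 4.88% of all genes tested.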

How the data were processed

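TruSeq libraries were made from 1 µg of total RNA, and the table that the authors deposited holds whole-number read counts without normalization. Per the submitters' processing notes, CASAVA, FastQC 0.10.1, STAR 2.5.0a and the mm10 build were used. How reads were assigned to genes, and whether by strand, was not given in the sources used, so overlapping and copied genes are uncertain. Of 47729 genes, 47310 matched GENCODE M21, which gave names and positions, and 419 did not. Genes were kept by filterByExpr (minimum count 10), scaled by TMM and tested with edgeR 4.0.16 in R 4.3.3 (glmQLFit, glmQLFTest). The fit of 4 libraries gave an infinite prior degree of freedom. The 9-library fit (2 residual degrees of freedom, prior 12.0; without the female NP hippocampus library, which lacks part of the genes) and the rule of passing both were therefore added after seeing the data. Pair ratios are log2 CPM with prior count 2, and their intervals are exact Poisson 95%. DESeq2 1.42.0 and the other settings are given in the closing section. The scripts were tested on simulated data. The members and gene lists were chosen with earlier results of these data known. The rule for named genes took, in each direction, the 15 genes of smallest p with 1 sign in both pairs and at most 2 predicted or copy names. It added the first 4 members of each list, up to 8 past the threshold, and 5 genes in each direction for the region difference. Other genes that passed both fits were named after their values were seen. Genes of the mitochondrial genome held 0.0020 to 0.0024% of counts and are not described. A few named genes are not reported here.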

Additional observations from a re-analysis of the deposited data

Results flagged for a closer look

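Both pairs of prefrontal cortex and both pairs of hippocampus went opposite ways for 2 of the genes that passed both fits. Rxfp1 had ratios of -0.86 and -0.91 in prefrontal cortex and 0.13 and 0.39 in hippocampus, a difference of -1.14 (edgeR, adjusted p = 0.33). Apc had -0.38 and -0.34 in prefrontal cortex and 0.02 and 0.03 in hippocampus, a difference of -0.39 (edgeR, adjusted p = 0.33). Neither difference between regions passed over all genes.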

How the results depend on the processing

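The count of genes past the threshold (781 with the 4 libraries) was 45 with DESeq2, 51 with no low-count filter, 20 with no sex term, 187 of 10973 with the spread from 8 libraries and 81 with that from 9, and 20 to 312 when 1 library was left out. RLE scaling (760), the earlier edgeR method (769) and a mean of at least 5 CPM (796) changed it little. For the same settings in that order (DESeq2, no filter, no sex term, 8 libraries, 9 libraries, then the range without 1 library) the immediate early and activity-induced genes numbered 9, 10, 4, 24, 13 and 3 to 19 (34 in the main test), the heat shock genes 4, 4, 1, 3, 4 and 0 to 6 (8), the myelin genes 1, 0, 0, 10, 0 and 0 to 7 (20), and the blood genes 4, 4, 4, 2 (of 2 tested), 4 and 2 to 4 (5). The 8-library fit tested fewer genes, and genes to which DESeq2 gave no adjusted p count as not passed. The cause of the other losses was not tested. All 80 genes that passed both fits kept their direction in every setting in which they could be fitted. Over the settings that left out 1 library, the log2 difference ran from -0.0060 (without female NP) to 1.49 for Fos, from -0.10 to 0.89 for Junb and from -0.12 to 1.00 for Nr4a1. It ran from -0.60 to 5.1e-04 (without male NP) for Gfap and from -0.87 to 0.45 (without male LP) for Ptgds. The share of genes with 1 sign in both pairs was 58.4%, and 57.9% without TMM. The sex term already pairs the LP and NP libraries of each sex, so the fit with no sex term (20 genes) is the unpaired one. With 1 residual degree of freedom and 10256882 to 13588314 counts per library, small differences of low genes were not detectable.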
